A study of Mus musculus with 18 samples.

Results

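Keratins were followed in 2 mouse cell lines: Hepa1-6, from liver cancer, and B16, from melanoma. The genes described are Krt6a, Krt7, Krt8, Krt10, Krt18, Krt19, Krt20, Krt23 and Krt80, which are 9 of the 55 keratin genes and of the 32015 gene symbols in the deposited tables. They were taken by name, and Krt23 and Krt6a were chosen by their measured fold changes, which were large and opposite between Hepa1-6 cells with guides against Ncor1 and control cells. Their values in that contrast are therefore given as a description with no test.

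Each line was sampled in 3 groups of 3 libraries of polyadenylated RNA. One group carried the control guide sgCtrl and has the genotype label WT. The others carried sgNcor1-1 or sgNcor1-2, guides against Ncor1, which encodes a nuclear receptor corepressor, and both have the genotype label Ncor1 knockout. Nothing in the labels says whether a group is 1 clone or a pool of cells. Nor do they say that its 3 libraries were grown apart, and the p-values therefore reflect library-to-library spread that may be purely technical. The series title concerns NCOR1 in DNA mismatch repair and in the response of tumours to immune checkpoint blockade.

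Keratins are the intermediate filament proteins of epithelial cells. Acidic type I keratins, here Krt10, Krt18, Krt19, Krt20 and Krt23, pair with basic to neutral type II keratins, here Krt6a, Krt7, Krt8 and Krt80, as obligate heterodimers. Hepatocytes normally build their filaments from the Krt8 and Krt18 pair, bile duct cells add Krt7 and Krt19, and melanocytes, which come from the neural crest, rely on vimentin filaments instead. In the mouse the type I genes sit in a cluster on chromosome 11 and the type II genes on chromosome 15, with Krt18 as the type I gene that lies beside Krt8 in the type II cluster.

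RefSeq promoter windows of build GRCm38.p6, which run from 250 bases before to 50 bases after each gene's start, matched 6 of the 9 genes. The windows of the 4 most abundant keratins and of Krt23, the keratin whose RNA was found almost only with the Ncor1 guides, are shown 5′ to 3′ on the gene's strand. Capitals mark AGGTCA, the half-site bound by many nuclear receptors, and TATAAA, the TATA box, on either strand.
Krt8, chr15:102004293-102004592, minus strand: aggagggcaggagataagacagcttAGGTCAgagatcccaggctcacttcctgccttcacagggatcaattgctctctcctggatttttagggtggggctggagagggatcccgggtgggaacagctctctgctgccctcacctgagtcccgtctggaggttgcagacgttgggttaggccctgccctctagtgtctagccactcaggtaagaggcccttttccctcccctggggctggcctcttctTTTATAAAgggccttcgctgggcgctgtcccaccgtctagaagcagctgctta
Krt18, chr15:102027966-102028265, plus strand: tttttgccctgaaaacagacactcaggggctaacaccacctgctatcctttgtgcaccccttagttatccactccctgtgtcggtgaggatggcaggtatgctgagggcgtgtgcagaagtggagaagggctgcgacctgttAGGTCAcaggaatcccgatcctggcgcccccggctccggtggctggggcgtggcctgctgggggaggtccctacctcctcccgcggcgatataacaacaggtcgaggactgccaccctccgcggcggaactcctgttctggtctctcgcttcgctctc
Krt7, chr15:101412153-101412452, plus strand: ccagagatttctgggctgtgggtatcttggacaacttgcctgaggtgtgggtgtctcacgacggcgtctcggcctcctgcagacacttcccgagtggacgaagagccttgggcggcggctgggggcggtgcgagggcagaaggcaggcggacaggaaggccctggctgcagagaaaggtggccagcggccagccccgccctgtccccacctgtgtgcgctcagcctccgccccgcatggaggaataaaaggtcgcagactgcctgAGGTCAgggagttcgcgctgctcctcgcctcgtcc
Krt20, chr11:99438104-99438403, minus strand: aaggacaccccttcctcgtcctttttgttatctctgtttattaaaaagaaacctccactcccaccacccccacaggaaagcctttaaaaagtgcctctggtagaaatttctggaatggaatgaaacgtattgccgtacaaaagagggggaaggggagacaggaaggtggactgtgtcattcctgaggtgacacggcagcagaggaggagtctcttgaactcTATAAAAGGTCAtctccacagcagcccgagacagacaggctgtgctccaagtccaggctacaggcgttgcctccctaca
Krt23, chr11:99493071-99493370, minus strand: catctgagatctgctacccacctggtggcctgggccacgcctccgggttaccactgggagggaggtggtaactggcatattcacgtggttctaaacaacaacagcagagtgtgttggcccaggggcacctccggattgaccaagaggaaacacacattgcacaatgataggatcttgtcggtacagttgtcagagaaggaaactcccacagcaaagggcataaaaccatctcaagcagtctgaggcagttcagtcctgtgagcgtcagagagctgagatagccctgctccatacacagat

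AGGTCA was in 4 of the 6 windows, with its first base at -225 in Krt8, -108 in Krt18, -23 in Krt20 and 16 in Krt7, counted from the start site. It was in 16.3% of all 32851 windows. TATAAA was in the windows of Krt8 at -1, Krt10 at -26 and Krt20 at -29, against 13.6% of all windows, and in Krt8 it overlaps its own reverse match. In Krt20 the TATAAA and AGGTCA letters follow each other directly. The GC box GGGCGG was found in Krt7 alone of the 6, at 4 places, and in 35.7% of all windows. The AP-1 site TGANTCA, which 7.81% of all windows hold, was in none of the 6, and the Krt23 window held none of the 4 motifs on either strand. These are matches of letters in a short window and not measured sites.

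Library totals ranged from 17689335 to 30819689 counts in Hepa1-6 and from 15663983 to 25263749 in B16. The lines carried the markers of their labels. In Hepa1-6 the albumin gene Alb lay between 81.7 and 207 CPM (counts scaled to a common library total) and Afp between 99.2 and 407, while the apolipoprotein gene Apoa1 stayed at or below 0.512. In B16 the melanosome gene Pmel lay between 1473 and 5214 CPM, and Alb was at 0. Some markers of the opposite line were present: the melanosome glycoprotein gene Gpnmb lay between 339 and 693 CPM in Hepa1-6, where the 13 melanocyte genes summed to 344 to 696 CPM against 7211 to 24159 in B16, and the transferrin gene Trf lay between 88.4 and 148 CPM in B16, where the 18 hepatocyte genes summed to 91.0 to 149 CPM. Ncor1 RNA (mean ± SD, n = 3) was 253 ± 25.9 CPM in the Hepa1-6 controls. It was 170 ± 33.9 with sgNcor1-1 and 161 ± 25.3 with sgNcor1-2. Every Ncor1 guide library, at most 199.6, lay below every control library, at least 223. Of the 12458 genes tested in Hepa1-6, 5.02% had all guide libraries below all controls. The log2 fold change of Ncor1 for both guides together was -0.62 (SE 0.17). At an edgeR adjusted p of 0.223 it did not pass. In B16 the groups overlapped, at 307 ± 30.6, 293 ± 55.4 and 297 ± 60.8 CPM, so Ncor1 RNA does not separate the libraries labelled knockout from the controls in that line. Edits of the gene itself were not analysed here. On the first principal component of Hepa1-6, which held 53.3% of the variance, the 3 libraries numbered 1 lay between -71.9 and -27.4 and the other 6 between 14.3 and 37.2, and in B16 the sgNcor1-1 library numbered 1 stood apart at -96.5. The fold changes of the 9 keratins and the counts of called genes in each list are given with and without the libraries numbered 1.

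The simple-epithelial pair made up most of the keratin RNA of Hepa1-6. Krt18 had 1536 ± 398 CPM per kb of transcript in the control libraries (n = 3) and Krt8 had 612 ± 27.2, and together with Krt7 at 169 ± 43.1 and Krt20 at 133 ± 28.5 they stood far above the rest. Krt80 followed at 18.7 ± 0.358 CPM per kb, then Krt19 at 5.08 ± 3.37, Krt10 at 0.881 ± 0.121, Krt6a at 0.749 ± 0.267 and Krt23 at 0.0110 ± 0.0191. In this order of levels per kb, the control libraries of Krt7 and Krt20 overlapped, as did those of Krt10 and Krt6a, and no other neighbours did. As shares of all keratin counts per kb in the controls, Krt18 held 61.1% ± 5.29, Krt8 25.3% ± 5.86, Krt7 6.78% ± 0.9499, Krt20 5.33% ± 0.337 and Krt80 0.772% ± 0.161. The 12 genes chosen as bile duct markers summed to 615 to 1086 CPM over the 9 Hepa1-6 libraries, against 214 to 555 CPM in B16. In Hepa1-6, 7 of the 12 had a mean over 1 CPM, among them Sox9 at 36.1 to 159 CPM and the osteopontin gene Spp1 at 410 to 801 CPM. Spp1 was also present in B16, at 83.9 to 367 CPM. Between the controls 6 of 10 tested were called higher in Hepa1-6 and 1, Ggt1, lower, against 29.6% and 29.8% of all genes. Sox4, Aqp1 and Muc1 were not called. In B16 only 5 of the list passed the filter on low counts. A gene that passed through Hepa1-6 alone could only be called higher. The hepatocyte list summed to 1217 to 1803 CPM there, and the part of these genes in the levels of Krt7 and Krt19 was not tested.

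**Figure D1:**
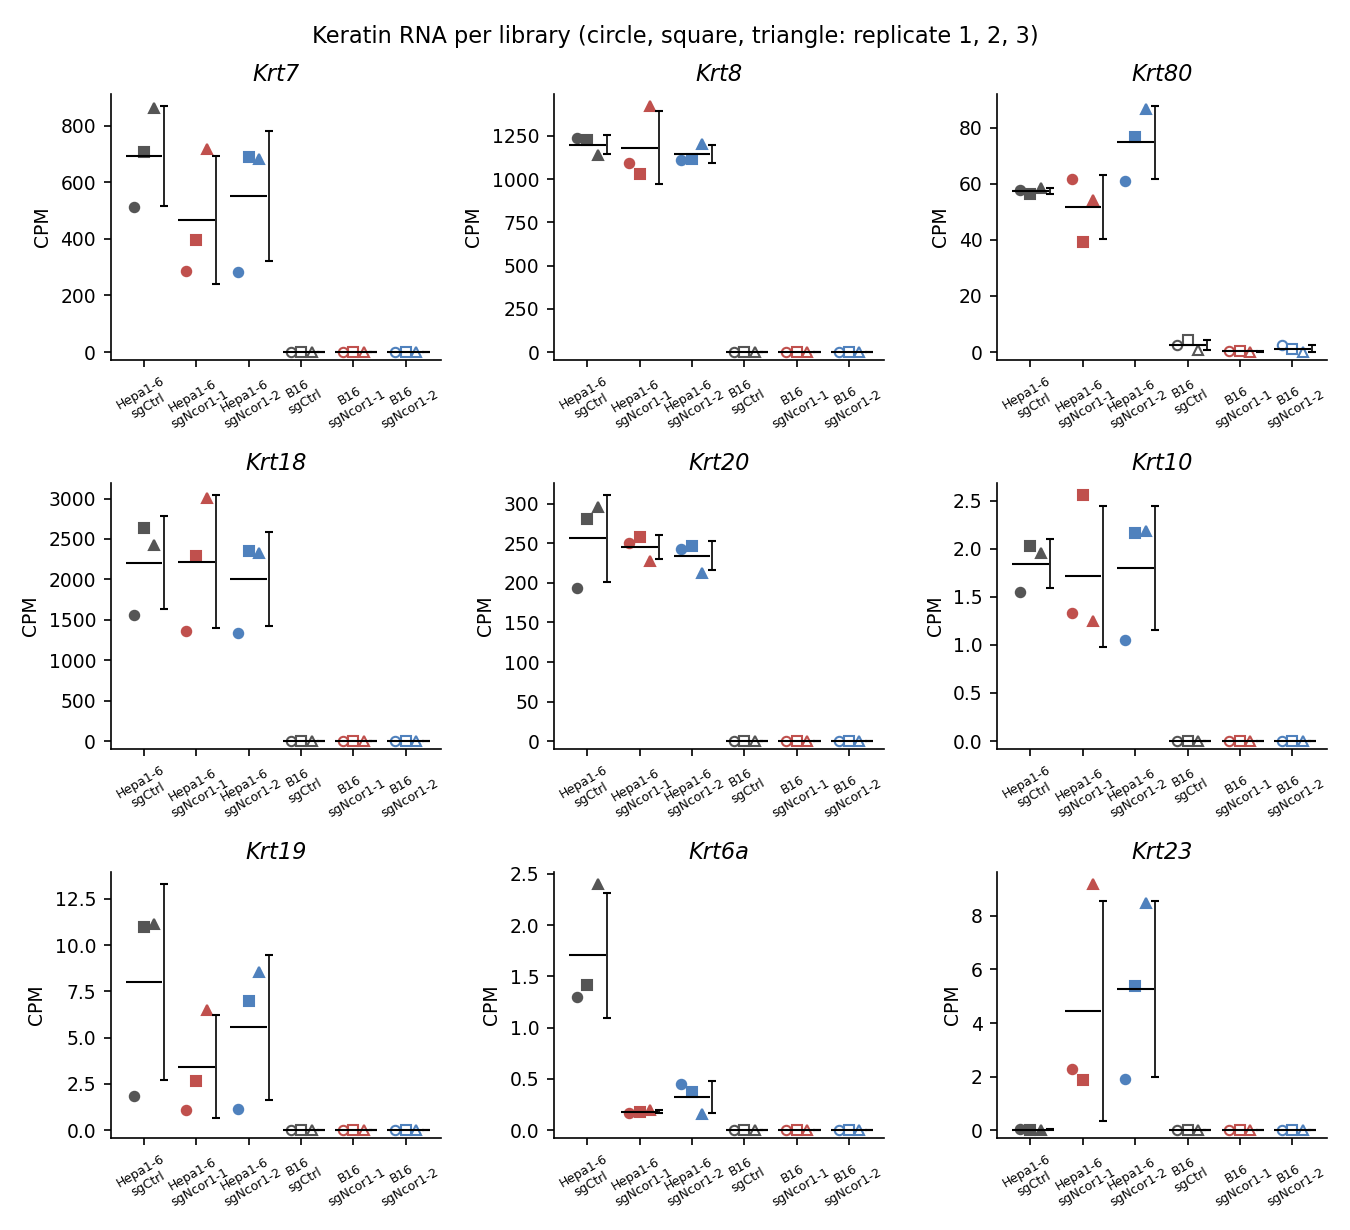
CPM of each keratin (linear axis from 0) in the 18 libraries, by line and guide, with the mean as a line and the SD as a bar beside each group of 3. Krt7, Krt8, Krt18 and Krt20 fill the Hepa1-6 libraries and are at or near 0 in B16, Krt23 appears in the 6 Hepa1-6 libraries with an Ncor1 guide, and Krt6a is highest in the 3 Hepa1-6 controls.

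Krt23, a type I keratin known in the mouse liver from ductular reactions, had the largest difference between the Hepa1-6 groups of the 22 keratins tested in that line. It had 0.0518, 0 and 0 CPM in the control libraries, which rest on 1, 0 and 0 counts. It had 2.29, 1.86 and 9.20 CPM under sgNcor1-1, and under sgNcor1-2 it had 1.92, 5.37 and 8.49. All 6 guide libraries lay above all 3 controls, and both guides spanned almost the same range. The 691 counts of the guide libraries against 1 count of the controls gave a ratio of 277 after scaling for depth, with a 95% counting interval from 49.6 to 10973. That interval covers counting error only. It leaves out the spread among libraries and the choice of the gene by this contrast, and is no test. The edgeR log2 fold change was 7.75 (SE 1.18), a value that depends on the prior count because the controls are at or near 0. Without the libraries numbered 1, both remaining controls were at 0 and the lowest guide library was at 1.86 CPM.

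Krt6a, a type II keratin of stressed and wounded stratified epithelia, ran the other way at low counts. The control libraries had 1.296, 1.42 and 2.40 CPM. Those with sgNcor1-1 had 0.171, 0.175 and 0.195 CPM, and those with sgNcor1-2 had 0.448, 0.375 and 0.152. All 6 guide libraries lay below all 3 controls, with 39 counts in total against 101. The ratio of controls to guide libraries was 6.45 after scaling for depth, with a 95% counting interval from 4.42 to 9.59. This interval too leaves out library spread and the choice of the gene, and is no test. The log2 fold change was -2.78 (SE 0.43), or -3.06 without the libraries numbered 1. Krt6a has a near-identical neighbour, Krt6b, among which the counting program shares reads, and Krt6b was listed with 3 counts over the 9 Hepa1-6 libraries.

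These were the 2 of 9 keratins whose Hepa1-6 groups did not overlap, and they were picked for it, while 9.13% of the 12458 genes tested in Hepa1-6 had no overlap. By sgNcor1-1 alone the log2 fold changes of Krt23 and Krt6a were 7.64 (SE 1.22) and -3.21 (SE 0.56), and by sgNcor1-2 alone 7.86 (SE 1.22) and -2.35 (SE 0.53), against the same controls.

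The abundant keratins had overlapping groups. Krt8, the type II partner, had 1236, 1224 and 1138 CPM in the controls, 1093, 1028 and 1423 with sgNcor1-1 and 1111, 1117 and 1204 with sgNcor1-2, and its log2 fold change was -0.05 (SE 0.15). Krt18, its type I partner, had 1557, 2634 and 2431 CPM in the controls, 1359.85, 2289.7 and 3009.5 with sgNcor1-1 and 1335, 2354 and 2326 with sgNcor1-2, and its log2 fold change was -0.07 (SE 0.30). For Krt18 the lowest library of every group was the one numbered 1. Krt8 varied least of the 9 keratins over the Hepa1-6 libraries, with an SD of 0.14 on the log2 CPM scale, against 0.43 for Krt18.

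Krt20, a type I keratin of gut and urothelial lining cells, had 194, 280.4 and 296 CPM in the controls, 251, 258 and 228 with sgNcor1-1 and 242, 247 and 213 with sgNcor1-2. Every guide library lay within the range of the controls, and the log2 fold change was -0.10 (SE 0.16). Krt80, a type II keratin found near desmosomes, had 57.6, 56.2 and 58.4 CPM in the controls, a narrow range, against 61.7, 39.4 and 54.3 with sgNcor1-1 and 61.0, 76.6 and 86.8 with sgNcor1-2. Of the sgNcor1-1 libraries 2 lay below all controls and the one at 61.7 CPM above them. All 3 sgNcor1-2 libraries lay above the controls, and the share of all genes that did so was not counted. The log2 fold change of Krt80 for both guides together was 0.11 (SE 0.18).

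Krt7 and Krt19, the pair that marks bile duct cells in liver, had groups that overlapped. Each guide library lay below the control of its number, but these 6 differences share 3 control libraries and the numbers are not known to pair the libraries, so they are no test. Krt7 had 512, 706 and 864 CPM in the controls, 285, 395 and 719 with sgNcor1-1 and 285, 689 and 681 with sgNcor1-2, with a log2 fold change of -0.46 (SE 0.35). Krt19 had 1.87, 11.0 and 11.2 CPM in the controls, 1.09, 2.68 and 6.51 with sgNcor1-1 and 1.12, 7.00 and 8.54 with sgNcor1-2, with a log2 fold change of -0.88 (SE 0.74). Within replicate numbers, the log2 differences of Krt19 from its control lay between -1.998 and -0.38. Krt10, a type I keratin of differentiating epidermis, was near the lower end of what could be measured, between 1.06 and 2.56 CPM in all 9 libraries, with a log2 fold change of -0.08 (SE 0.39).

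The replicate number separated the Hepa1-6 libraries for Krt18 and Krt19. The libraries numbered 1 also stood apart on the first principal component, so this separation is not read as a trait of keratins. The share of all genes it covers was not counted. In the 3 libraries numbered 1, 1 per group, Krt18 had 1335 to 1557 CPM, against 2289.7 to 3009.5 in the other 6, with no overlap. Krt19 likewise had 1.09 to 1.87 CPM against 2.68 to 11.2. Krt7 had 285 to 512 CPM against 395 to 864, which overlapped, and Krt8 had 1093 to 1236 against 1028 to 1423, which covered it. The ratio of Krt8 counts to Krt18 counts was 0.793, 0.804 and 0.832 in the libraries numbered 1 and 0.449 to 0.518 in the others, whatever the guide. Summed over all keratins per kb, the type II to type I ratio was 0.655, 0.603 and 0.623 in the libraries numbered 1 and 0.367 to 0.465 in the others. By group this ratio was 0.504 in the controls, 0.462 with sgNcor1-1 and 0.507 with sgNcor1-2, differences smaller than the spread within each group. What the number stands for is not stated in the labels. Without the libraries numbered 1, the log2 fold changes of both guides against the controls were -0.03 for Krt18, 0.01 for Krt8, -0.35 for Krt7, -0.88 for Krt19, -0.29 for Krt20, 0.11 for Krt80 and 0.02 for Krt10.

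**Figure D2:**
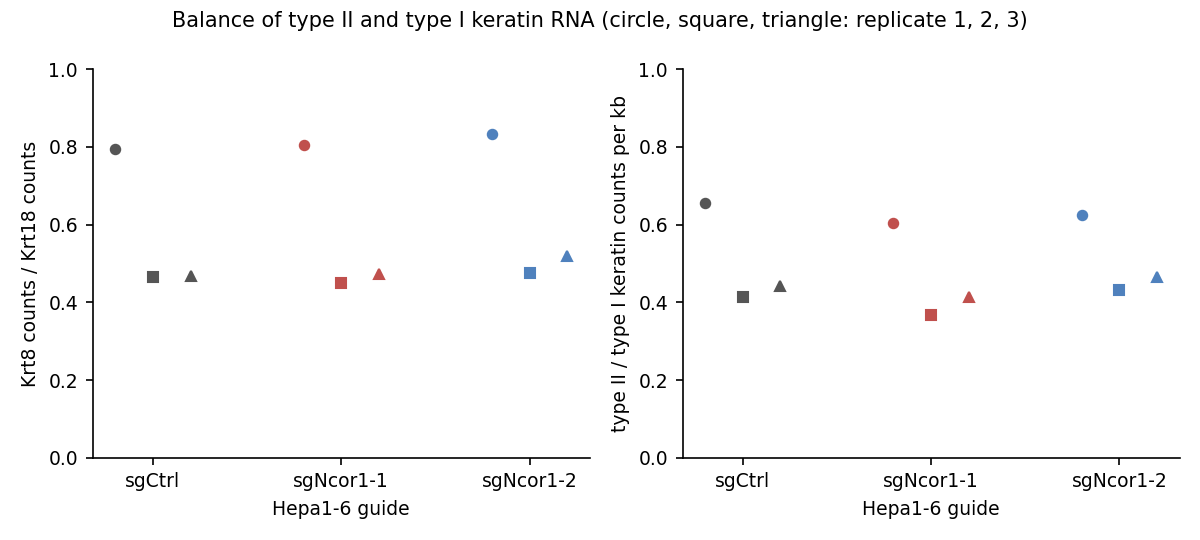
Ratio of Krt8 to Krt18 counts (left) and of all type II to all type I keratin counts per kb (right) in the 9 Hepa1-6 libraries, by guide, on axes from 0 to 1. In every group the circle, replicate 1, lies above the other symbols, at 0.793 to 0.832 on the left and 0.603 to 0.655 on the right.

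The guides against Ncor1 were also compared with each other, a contrast that did not choose the genes. In Hepa1-6 none of the 9 keratins passed, with adjusted p = 1 in edgeR for each, also without the libraries numbered 1, and 0 of all 12458 genes (0%) passed, with 9 at an unadjusted p under 0.05 and none called by DESeq2, which had 11 at that level. The log2 difference of sgNcor1-1 minus sgNcor1-2 was -0.22 (SE 0.72) for Krt23 and -0.85 (SE 0.57) for Krt6a. The smallest unadjusted p among the 9 was that of Krt80, 0.0310 in edgeR, with a log2 difference of -0.52 (SE 0.21).

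Beyond these 9, 13 other keratin genes passed the filter on low counts in Hepa1-6, and 1 of the 13 passed the test, against 0.201% of all genes tested. That count is a description and no test of keratins as a set. Krt90, a type II keratin gene at chr15:101552356-101562950 on build mm10, fell. It passed the filter through the control libraries alone, where it was high, so a fall was the only call open to it. Its control libraries had 46, 24 and 27 counts, or 2.38, 1.21 and 1.35 CPM, the sgNcor1-1 libraries 0.103, 0.0582 and 0.156 CPM and the sgNcor1-2 libraries 0.224, 0.167 and 0.152 CPM. Every guide library lay below every control, and the log2 fold change was -3.50 (SE 0.43, edgeR adjusted p = 0.0134). The log2 fold change stayed between -3.68 and -3.14 when 1 library was left out, but the call did not always hold. The edgeR adjusted p was 0.109 without the sgCtrl library numbered 1, 0.0737 without the one numbered 2 and 0.0868 without the one numbered 3. It was likewise lost, at 0.0575, without the sgNcor1-1 library numbered 2, at 0.0883 and 0.0660 without the sgNcor1-2 libraries numbered 2 and 3, and at 0.0650 without all libraries numbered 1. Krt90 is the tested keratin gene next to Krt6a on one side in that cluster. Krt5 on the other side, a type II keratin of basal epidermal cells, had 9.38 ± 4.27 CPM in the controls and 8.92 ± 3.78 in the guide libraries, which is a log2 difference of -0.07 (SE 0.48) at an edgeR adjusted p of 0.975, or -0.64 (adjusted p = 0.549) without the libraries numbered 1.

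Among the 6 other type I keratins tested, none passed. The smallest p-values were those of Krt14, the type I partner of basal cells, whose log2 fold change was -0.99 (edgeR adjusted p = 0.473, SE 0.46), and of the hair keratins Krt33b at 1.14 (SE 0.54, adjusted p = 0.480) and Krt31 at 1.72 (SE 0.83, adjusted p = 0.489). Krt23 lies between Krt20 and Krt33b in the order of tested genes on chromosome 11. Of these neighbours, Krt20 had a log2 fold change near 0 and Krt33b had 4.55 ± 1.98 CPM in the controls and 10.0 ± 5.81 in the guide libraries.

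**Figure D3:**
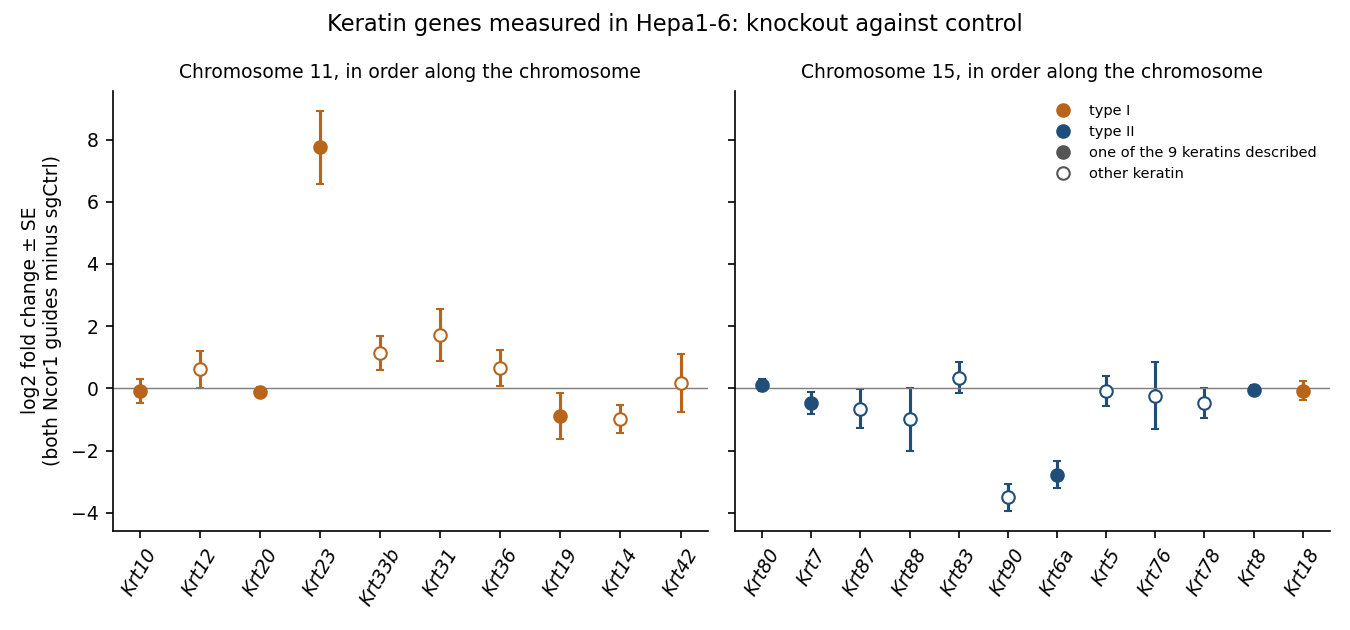
Log2 fold change with its SE (vertical axis, both Ncor1 guides minus sgCtrl) of the 22 keratin genes tested in Hepa1-6, in their order along chromosomes 11 and 15, with filled symbols for the 9 keratins described. Krt23 stands at 7.75, Krt90 and Krt6a at -3.50 and -2.78, and the other 19 lie between -0.99 and 1.72.

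Partners of keratin filaments were measured in the same Hepa1-6 contrast. Of 14 tested plakin and desmosome genes, which anchor keratins at cell junctions, none passed in either direction, with a median log2 fold change of -0.16 against 0.02 over all genes. The smallest p in that list was that of the plakophilin gene Pkp1, at -0.90 (SE 0.26, edgeR adjusted p = 0.254), and the desmoplakin gene Dsp was at -0.40 (SE 0.28, adjusted p = 0.626). None of 7 hemidesmosome and laminin genes, 17 keratin-binding and turnover genes, 15 epithelial junction genes or 8 other intermediate filament and lamin genes passed either. Their medians were 0.03, 0.15, -0.01 and -0.09. Without the libraries numbered 1 none of these lists had a called gene either, with medians between -0.12 and 0.12. The bile duct list had 0 of 8 called at a median of -0.39, or 0 of 9 at -0.47 without the libraries numbered 1. Of the 8, 3 were above 0, and the transcription factor gene Sox9 was at -0.73 (SE 0.30, edgeR adjusted p = 0.424). The part of these genes in the Krt7 and Krt19 values above, whose groups overlapped, was not tested.

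The genes with the patterns nearest to Krt23 over the 9 Hepa1-6 libraries, by the root mean square difference of centred log2 CPM, were the adenylyl cyclase gene Adcy8 at 0.79, A730056A06Rik at 0.94 and the pyruvate carboxylase gene Pcx at 1.05. Their levels were 0.204 ± 0.105 CPM in the controls and 9.39 ± 1.16 in the guide libraries for Adcy8, 0.0683 ± 0.0592 and 14.7 ± 7.50 for A730056A06Rik, and 27.0 ± 12.7 and 357 ± 40.4 for Pcx. For Krt6a the nearest were the biglycan gene Bgn at 0.44, the lysyl oxidase family gene Loxl2 at 0.51 and Krt90 at 0.52. Bgn had 2.96 ± 0.337 CPM in the controls and 0.359 ± 0.119 in the guide libraries, and Loxl2 3.68 ± 1.09 and 0.834 ± 0.277. All were picked for their likeness to Krt23 or Krt6a over these libraries, so their group differences follow from that choice. In B16 the same genes did not share a level: Loxl2 had 90.7 ± 12.2 CPM in the controls and 97.9 ± 27.6 with the guides, Bgn and Krt90 were at 0 in all 9 libraries, and Adcy8 had 2 counts in all.

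Krt8 and Krt18 were not each other's nearest genes. Among the patterns nearest to Krt18 were those of the ribosomal protein gene Rpl36 at 0.07 and of the lipid kinase gene Pi4k2a at 0.08, and Krt8 came at rank 2844 with a difference of 0.37. The patterns nearest to Krt8 were those of the protease gene Furin at 0.06, the acid sphingomyelinase gene Smpd1 at 0.06 and the mitochondrial gene Ptcd1 at 0.07, with Krt18 at rank 5989. These likenesses are a description over 9 libraries in which replicate number 1 stands apart.

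B16 held almost no keratin RNA. Of the 55 keratin genes 8 had any count in B16 and 3 passed the filter on low counts, Krt80, Krt42 and Krt87, against 45 and 22 in Hepa1-6. Krt6a, Krt7, Krt10, Krt18, Krt19, Krt20 and Krt23 had 0 counts in all 9 B16 libraries. A count of 0 allows up to 3 counts per library, which is 0.121 to 0.228 CPM. Krt8 had 3, 1 and 0 counts in the sgCtrl libraries of B16 and 0 in the other 6. In bulk RNA, fewer cells with a transcript and less of it per cell cannot be told apart.

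Between lines the 7 keratins not picked for their response were all higher in the Hepa1-6 controls than in the B16 controls by edgeR, where 29.6% of the 14044 genes tested were higher. All but Krt80 passed the filter on low counts through Hepa1-6 alone, so higher was the only call open to them. Their p-values and the count of 7 are therefore no test of keratins. Krt18 was at least 12545-fold higher (adjusted p = 6.62e-09), Krt7 at least 3944-fold (4.83e-08), Krt20 at least 1458-fold (5.37e-10), Krt19 at least 45.5-fold (0.000343) and Krt10 at least 10.5-fold (3.63e-05), each bound set by 3 counts per B16 library. Krt8 gave a ratio of 17892 with a 95% counting interval from 6988 to 65667, resting on 4 B16 counts (edgeR adjusted p = 2.15e-10). Krt80, the one of the 9 keratins that passed the filter on low counts in both lines, was 24.5 times higher in the Hepa1-6 controls, with a counting interval from 20.7 to 29.2 and a log2 fold change of 4.53 (SE 0.68, edgeR adjusted p = 2.67e-05). That interval covers counting error only: the log2 fold change was 5.21 without the B16 sgCtrl library numbered 2 (edgeR adjusted p = 5.90e-05) and 4.11 without the one numbered 3 (0.000211). Without the libraries numbered 1 all 7 were still called higher, with edgeR adjusted p-values of at most 0.000548. Krt6a, given as a description, was at least 9.69-fold higher, and Krt23 was at or under the limit of detection in the controls of both lines.

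In the libraries with the Ncor1 guides all 7 were again higher in Hepa1-6 by edgeR, where 36.4% of genes were higher. This was again the only call open to all but Krt80. Krt80 stood at 70.9 times (counting interval 58.2 to 87.3, log2 fold change 6.70, SE 0.55, edgeR adjusted p = 1.23e-08). Without the libraries numbered 1 all 7 were called there too, with Krt80 at a log2 fold change of 7.23 (edgeR adjusted p = 3.56e-06). Krt23, at 0 in B16, was at least 21.3-fold higher in Hepa1-6 there, and the bound for Krt6a was 1.11-fold.

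Krt80 was the one of the 9 keratins that could be tested between guides and controls in B16. The controls had 2.42, 4.34 and 0.760 CPM, from 49, 74 and 17 counts. The sgNcor1-1 libraries had 0.304, 0.475 and 0.0537 CPM, from 4, 8 and 1 counts, and the sgNcor1-2 libraries had 2.51, 1.18 and 0.108 CPM, from 62, 22 and 2 counts. All 3 sgNcor1-1 libraries lay below all 3 controls, as did 4.01% of genes tested, and the sgNcor1-2 libraries overlapped both, while the library numbered 3 was the lowest of each group. For both guides together the log2 fold change was -2.06 (SE 0.85), with an unadjusted p of 0.0368 and an adjusted p of 1.00 in edgeR, so it did not pass, and 0.0324% of the 12347 genes tested did. For sgNcor1-1 alone it was -3.15 (SE 1.13, edgeR unadjusted p = 0.0202, adjusted p = 1.00), and for sgNcor1-2 alone -0.98 (SE 0.99, adjusted p = 1.00), where 0.0081% of genes passed with either guide alone.

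In B16 the replicate numbers were taken to pair the libraries, from correlations in these data and not from the labels. With the number as a block the value for both guides was -2.22 (SE 0.47) with an edgeR adjusted p of 0.142, which did not pass either. Within numbers, sgNcor1-1 lay below its control by log2 differences of -2.65, -2.96 and -2.52, and sgNcor1-2 differed by 0.05, -1.80 and -2.07. The log2 difference of sgNcor1-1 minus sgNcor1-2 was -2.17 (SE 1.11, edgeR adjusted p = 1.00), or -2.01 (SE 0.64, adjusted p = 0.643) with the block. No gene passed between the guides in B16 in edgeR (0%), with 46 at an unadjusted p under 0.05, nor in DESeq2, with 101. Leaving out the sgCtrl library numbered 2 moved the value for both guides to -1.39, leaving out the sgNcor1-2 library numbered 1 moved it to -2.54, and leaving out the sgNcor1-1 library that stands apart moved it to -2.11, with adjusted p-values of 1.00, 1.00 and 0.962. Without all libraries numbered 1 it was -2.63 (edgeR adjusted p = 1.00).

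**Figure D4:**
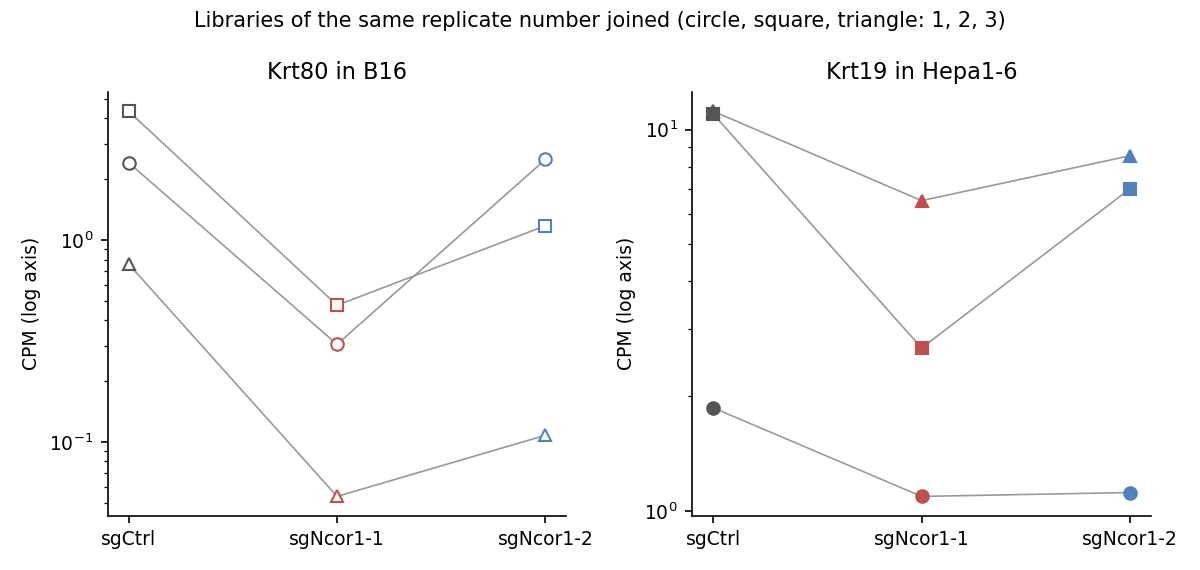
Krt80 in B16 (left) and Krt19 in Hepa1-6 (right), in CPM on log axes, with libraries of the same replicate number joined by a line. Krt80 with sgNcor1-1 lies below its control in all 3 numbers, sgNcor1-2 lies below in 2 of 3, and Krt19 lies below the control of its number in every guide library, with the libraries numbered 1 lowest in each group.

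The remaining keratins of B16 were Krt42, a type I keratin gene, at 3.87 ± 2.14 CPM in the controls and 3.55 ± 2.37 in the guide libraries, and Krt87, a type II hair keratin gene, at 2.23 ± 2.27 and 1.22 ± 1.19. Neither passed between guides and controls, with log2 fold changes of -0.13 (SE 0.58) and -0.95 (SE 0.89) and edgeR adjusted p-values of 1.00. Krt42 was the keratin called lower in Hepa1-6 than in B16, at a log2 fold change of -2.92 (SE 0.96, edgeR adjusted p = 0.0150), as 29.8% of all genes tested were, while 5 of 6 other type I keratins and 6 of 7 other type II keratins tested were called higher in Hepa1-6. Those called higher had 0 counts in all 9 B16 libraries, so no other call was open to them. Without the libraries numbered 1, Krt42 was at -2.74 (edgeR adjusted p = 0.00727), and 5 of 7 type I and 5 of 7 type II keratins tested were called higher. The type II to type I ratio per kb in B16 ranged from 0.0834 to 1.03 over the 9 libraries, at totals too low to read a balance from.

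The wider filament system differed between the lines along with the keratins. Of all genes tested between the control libraries, 29.6% were higher and 29.8% lower in Hepa1-6, and the counts of each list stand against these shares. Of 14 tested plakin and desmosome genes 11 were higher in the Hepa1-6 controls and none lower, the same counts as without the libraries numbered 1. The desmoplakin gene Dsp, whose protein ties keratins to desmosomes, had 554 ± 99.6 CPM in Hepa1-6 and 0.210 ± 0.107 in B16, with a log2 fold change of 11.4 (SE 0.91, edgeR adjusted p = 2.26e-08), and the plakoglobin gene Jup had 344 ± 94.3 and 33.6 ± 10.6 CPM, at 3.35 (SE 0.40, adjusted p = 2.28e-06). The periplakin gene Ppl and the desmosomal gene Perp had 67.3 ± 25.0 and 217 ± 25.7 CPM in Hepa1-6 and 0 counts in the B16 controls. In B16 only 6 genes of this list passed the filter on low counts. Dsp, Ppl and Perp passed it through Hepa1-6 alone, so higher was the only call open to them. The count of 11 is therefore no test of the list. Of 7 hemidesmosome and laminin genes 6 were higher and 1, Lama3, lower in Hepa1-6, again the same counts without the libraries numbered 1, with the integrin gene Itgb4 at 342 ± 22.4 against 2.74 ± 0.526 CPM.

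Other intermediate filaments ran mostly the other way, with 8 of 12 lower and 2 higher in Hepa1-6, where 29.8% and 29.6% of all genes were, or 8 of 13 lower and 3 higher without the libraries numbered 1. The vimentin gene Vim had 297 ± 126 CPM in the Hepa1-6 controls and 1992 ± 754 in B16, with a log2 fold change of -2.75 (SE 0.57, edgeR adjusted p = 0.000562), or -2.09 (SE 0.37, adjusted p = 0.000735) without the libraries numbered 1. The nestin gene Nes, a filament of neural crest and progenitor cells, had 0.169 ± 0.0270 CPM in Hepa1-6 and 173 ± 18.6 in B16, and the glial filament gene Gfap had 0.0512 ± 0.0518 and 67.5 ± 14.9. Nes and Gfap passed the filter on low counts through B16 alone, so lower was the only call open to them. The counts of this list are therefore no test. The lamin gene Lmna, of the nuclear envelope, was higher in Hepa1-6, at a log2 value of 0.65 (SE 0.26, edgeR adjusted p = 0.0429).

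Genes of epithelial junctions and of squamous differentiation were not all called higher in Hepa1-6. Of 18 tested epithelial genes 12 were higher in Hepa1-6 and 3 lower, against the same shares of 29.6% and 29.8% and with the same counts without the libraries numbered 1, with Epcam at 29.6 ± 8.19 against 0.400 ± 0.569 CPM and the protease inhibitor gene Spint2 at 164 ± 6.11 against 0.0587 ± 0.102. The E-cadherin gene Cdh1 was low in both lines, at 0.304 to 1.101 CPM over the Hepa1-6 libraries and 0 to 0.821 over the B16 libraries, and did not pass (log2 fold change 0.17, SE 0.87, edgeR adjusted p = 0.879). Of 7 tested cornified envelope genes 6 were higher in Hepa1-6 and 1 lower, or 6 and 0 without the libraries numbered 1, with Sprr1a, a small proline-rich envelope protein gene, at 2423 ± 96.0 CPM in Hepa1-6 and 0 counts in the B16 controls. In B16 only 11 genes of the epithelial list and 2 of the cornified list passed the filter on low counts. A gene that passed through 1 line alone could only be called higher in that line. These counts are therefore no test of the lists. Factors of mesenchymal transition split, with Zeb1 at 50.1 ± 9.09 CPM in Hepa1-6 and 0 counts in the B16 controls, and Zeb2 at 11.9 ± 7.38 and 357 ± 39.0.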

How the data were processed

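The authors deposited RSEM expected counts, with 1 table for each line. Per the submitters' processing notes they were made on build mm10 with Trim Galore 0.6.7, Bowtie2 2.2.5 and RSEM 1.2.8. Neither the gene models used for counting nor the strandedness of the kit is given in the sources used here. Fractional entries (tolerance 0.001) made up 7.87% of the Hepa1-6 table and 7.19% of the B16 one, because reads are shared among similar genes, and all were rounded. The members and gene lists were chosen with earlier results of these data known.

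Tests were edgeR 4.0.16 quasi-likelihood fits in R 4.3.3 of the 9 libraries of a line, or of all 18 for line contrasts, with TMM factors, edgeR's own low-count filter and Benjamini-Hochberg adjustment over all genes tested. All fits were tested on simulated data. An adjusted p under 0.05 was called. Knockout means the average of both guides minus sgCtrl. CPM uses TMM over the 18 libraries, and values are mean ± SD. Levels per kb use the GENCODE vM21 transcript with the longest coding sequence, since lengths differ among annotations. Counting intervals (95%, exact) and the limit of 3 counts for a count of 0 cover counting error only. The text names all 9 members, Ncor1, for each list the genes called and up to 4 with the smallest p, and for 4 members the 3 nearest genes, except that some genes the rule picked are not reported here.

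The same-numbered B16 libraries deviated together, with correlations of deviations from group means from 0.503 to 0.826. Their numbers were therefore taken to pair them, though the labels do not say so. In Hepa1-6 these correlations were 0.803 to 0.953 between the guides and -0.0479 to 0.584 between controls and guides, and since 1 of the 9 was under 0.1 the numbers were not taken to pair. Alternatives were DESeq2 1.42.0, RLE size factors, no filter, the replicate block and left-out libraries.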

Additional observations from a re-analysis of the deposited data

How the results depend on the processing

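Counts of called genes moved more than the keratins did. In the Hepa1-6 knockout contrast 25 genes were called in edgeR, 344 in DESeq2 and 525 with the replicate block, and 6 to 19 when 1 library was left out. In B16 the counts were 4 in edgeR, 43 in DESeq2, 17 with no filter, 48 with the replicate block, 0 without the libraries numbered 1 and 1 to 3 when 1 library was left out. Krt90 was called in Hepa1-6 by DESeq2 (adjusted p = 4.22e-06) and with the block (0.00308), and its loss with fewer libraries is given above. The Hepa1-6 numbers were not taken to pair, and the block changed no call of a member. Krt23 against controls at 0 moved with the prior count and is best read from its counts. Without lengths per kb, the type II to type I ratio was 0.823, 0.714 and 0.804 in Hepa1-6 with sgCtrl, sgNcor1-1 and sgNcor1-2, and 1.08 and 0.274 in B16 with sgCtrl and sgNcor1-1. Lengths of all exons merged, an alternative chosen after seeing the data, gave 0.455, 0.428 and 0.463 in Hepa1-6. The ratio over the 9 keratins alone could not be given in B16, where their type I genes were at 0. Of the members' log2 fold changes and that of Krt90 under these settings, 693 kept their direction and side of the threshold or moved by less than the replicate spread. Another 8 moved further and 7, all of Krt90, lost the call. In B16 depth limits every keratin but Krt42. Krt80 and Krt87 also passed the filter there, but went down to 1 and 4 counts in a library.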
